A study of Mus musculus with 6 samples.

Results

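The genes described here are 41 genes of DNA replication and of the G1/S transition, the step at which a cell commits to copying its genome. They were chosen by symbol, and 40 of them are among the 12389 genes of the per-library table; E2f2 was not analysed here. Messenger RNA was sequenced from primary aortic smooth muscle cells of mice, grown out of pieces of thoracic aorta, kept in medium with serum and collected untreated, at no later than passage 6. The libraries number 6, with 3 of wild-type cells (WT) and 3 of cells from mice with a smooth muscle-specific knockout of LRRC8A (KO), which encodes the essential subunit of volume-regulated anion channels. Neither the promoter that drove the deletion nor the age of the mice is stated in the labels. Groups were taken from the sample titles, since the genotype field has wild type in each sample. The series states that the replicates are independent biological ones; no label says what a replicate number marks, and p-values measure only the spread between these cultures.

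Replication begins when the origin recognition complex, with CDC6 and CDT1, loads the MCM2-7 helicase onto origins in G1. CDC45 and the GINS complex then turn the loaded ring into an active helicase, and polymerases, the sliding clamp PCNA and its loader copy the opened strands. The genes for these proteins are classic targets of E2F transcription factors, which are held back by retinoblastoma family proteins until cyclin D and cyclin E kinases release them. Aortic smooth muscle cells divide little in the vessel wall and re-enter the cycle in culture with serum, so the level of this program differs between proliferating and resting cultures.

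The deposited gene starts are those of the GRCm38 assembly. RefSeq promoter windows of that assembly (GRCm38.p6), each running from 250 bases before a transcript start to 50 after it, were found for 36 of the 41 genes. They were searched on both strands for 4 E2F-type words, TTTCCCGC, TTTGGCGC, TTTCGCGC and TTTGCCGC, which may overlap each other. At least 1 word lay in a window of 16 of the 36 genes (44.4%), against 4.91% of the 9043 tested genes with a window and 2.26% of all 32851 windows. Of the 33 other replication factors with a window 30.3% had a word, and of the 20 mitosis genes 5.0%. The stretches below show such words before the start of members from 6 roles, written 5′ to 3′ on the gene's strand with the words in capitals (GCGGGAAA, GCGCCAAA and GCGCGAAA are words on the other strand).
Mcm5 (chr8:75109336-75109387, plus strand): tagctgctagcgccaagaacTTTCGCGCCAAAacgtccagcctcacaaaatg
Mcm6 (chr1:128359725-128359835, minus strand): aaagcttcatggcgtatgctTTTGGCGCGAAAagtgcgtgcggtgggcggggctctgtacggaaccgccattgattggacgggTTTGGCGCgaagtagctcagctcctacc
Orc1 (chr4:108579407-108579453, plus strand): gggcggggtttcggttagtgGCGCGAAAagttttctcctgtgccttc
Cdc6 (chr11:98907993-98908040, plus strand): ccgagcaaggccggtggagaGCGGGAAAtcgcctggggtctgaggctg
Gins3 (chr8:95633498-95633545, plus strand): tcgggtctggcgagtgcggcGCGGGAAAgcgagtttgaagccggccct
Pola1 (chrX:93632266-93632313, minus strand): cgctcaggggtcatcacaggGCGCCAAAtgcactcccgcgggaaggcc
E2f7 (chr10:110745221-110745268, plus strand): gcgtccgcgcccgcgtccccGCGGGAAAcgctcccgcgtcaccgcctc
Hells (chr19:38930908-38930955, plus strand): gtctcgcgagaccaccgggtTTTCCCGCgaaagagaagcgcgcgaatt
Mcm5 and Mcm6 each carry a pair of overlapping words, and Mcm6 a further word closer to its start. The last 60 bases before the starts of the nucleotide supply genes Dut and Rrm2 are also shown, with the CCAAT of Rrm2 in capitals.
Dut (chr2:125247455-125247514, plus strand): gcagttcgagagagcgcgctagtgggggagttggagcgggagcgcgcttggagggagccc
Rrm2 (chr12:24708194-24708253, plus strand): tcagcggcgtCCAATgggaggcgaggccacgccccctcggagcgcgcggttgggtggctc
No window of either gene held an E2F-type word, which says only that these letters are not in these bases. CCAAT, searched on both strands, was in the windows of 61.1% of the members, 43.6% of the tested genes and 90.0% of the mitosis genes. Like Dut, Ccne1, Chaf1b, E2f1, Fen1, Rfc4, Rfc5, Tk1 and Tyms had neither an E2F-type word nor CCAAT. Their correlations with the mean of the other members over the libraries ran from 0.73 (Rfc5) to 0.98 (Ccne1), beside -0.02 for Dut. Any link between these words and the levels was not tested. A word is a description of the sequence and not a measured binding site.

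**Figure D1:**
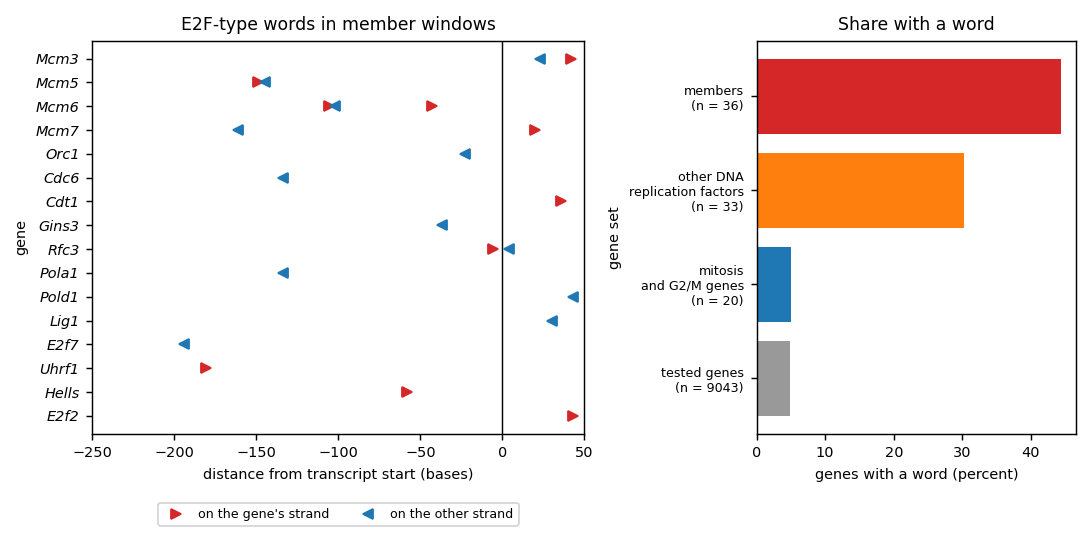
Left, the position of each E2F-type word (x axis, bases from the transcript start) in the windows of the 16 genes that hold one (y axis), with triangles pointing by strand. Right, the percent of genes with a word in each gene set, 44.4% for the members and 4.91% for the tested genes.

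Values are scaled reads, the deposited estimated read counts divided by a factor per library, and differences are on the log2(value + 2) scale, KO minus WT, which understates the change of low genes. Estimated depths ran from 31.0 to 47.9 M reads per library, with the replicate 3 libraries of both genotypes deepest at 45.4 and 47.9 M. The targeted gene Lrrc8a gave 2578, 2194 and 1221 scaled reads in the WT libraries and 868, 672 and 506 in the KO libraries. Values are always in the order of replicates 1, 2 and 3. Every Lrrc8a value in KO was under every one in WT, which held for 4.51% of all tested genes. Its difference was -1.51 (SE 0.34), with an adjusted p of 0.999 in limma, or 0.209 with the replicate number as a block. The targeted gene itself thus did not pass, which limits what a lack of calls among the members can show. Members ranged from 41.5 scaled reads (E2f8 in WT replicate 1) to 13309 (Rrm1 in KO replicate 3). All 40 passed the filter on low values, as did 12363 of the 12389 genes. Every gene of the per-library table had at least 200.5 estimated reads in its highest library.

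Most of the replication genes moved together across the 6 libraries, and they followed the replicate number more than the genotype. In 32 of 40 members the replicate 1 library was the lowest of its genotype in both WT and KO, which held for 17.8% of all tested genes. In 34 of 40 the replicate 3 library was the highest in both, against 22.5% of all tested genes. The median member lay 0.78 below its own mean in WT replicate 1 and 0.84 below it in KO replicate 1 on the log2 scale (medians of -0.78 and -0.84), and 0.60 and 1.11 above it in WT and KO replicate 3. Replicate 2 parted the genotypes, with a median of -0.38 in WT and 0.37 in KO. The highest library was a median 4.42-fold above the lowest for members and 1.95-fold for all tested genes. Across the same 6 libraries, from which the replicate-number pattern above was read, the correlation of a member with the mean of the others had a median of 0.96. It exceeded 0.9 in 30 of 40 members. Over all tested genes the median correlation with the member mean was -0.02 and 3.71% exceeded 0.9. These are descriptions.

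**Figure D2:**
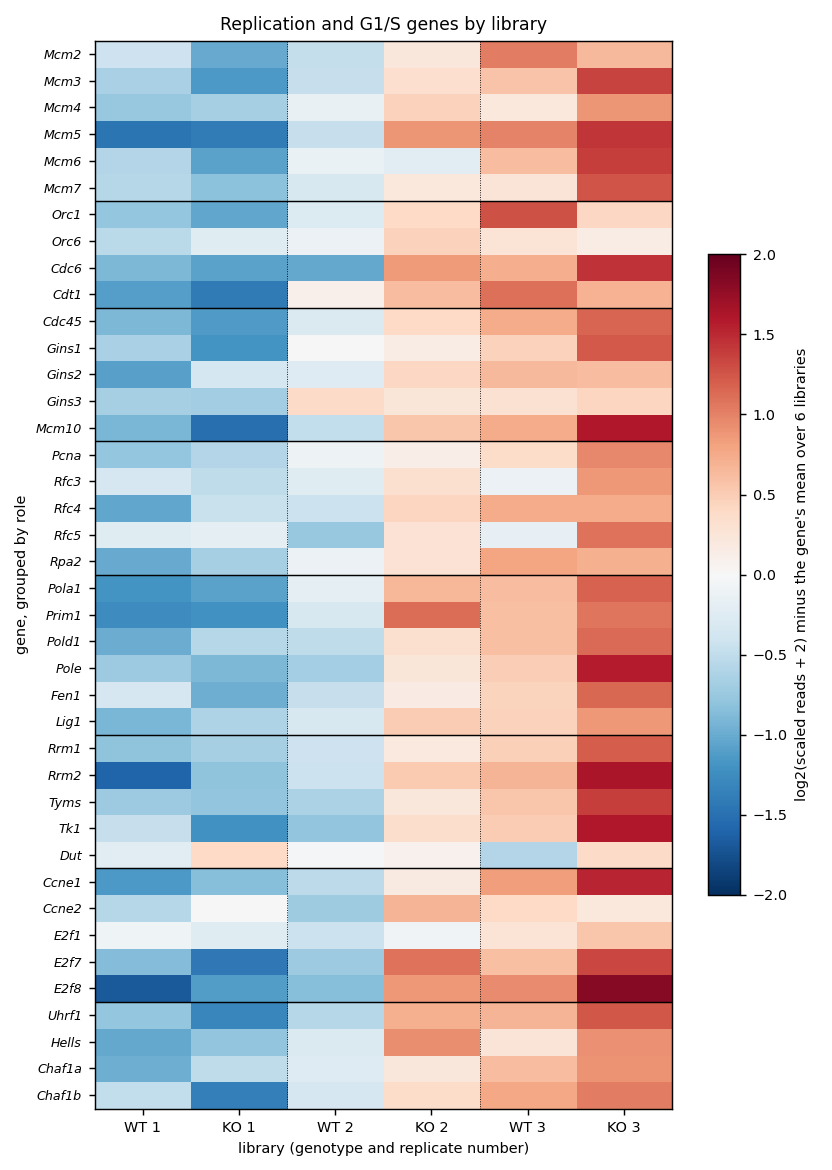
Colours give log2(scaled reads + 2) minus the gene's mean over the 6 libraries for 40 genes (rows, by role, parted by lines) in each library (columns, same-numbered WT and KO side by side). Most rows are blue in both replicate 1 libraries and red in KO replicate 3, and Dut departs from this.

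Between 3.13-fold (Mcm4) and 7.37-fold separated the highest and lowest library among the 6 subunits of the MCM2-7 ring, the helicase that opens DNA. Mcm4 had 1289, 1982 and 2543 scaled reads in WT and 1383, 3019 and 4031 in KO, a log2 difference of 0.46 (SE 0.44). Mcm7 had 1759, 2114 and 3135 in WT and 1486, 3025 and 6262 in KO, a difference of 0.42 (SE 0.52). For both genes WT and KO overlapped, and the replicate 1 libraries were the lowest of each genotype. Mcm5, with the widest range, had 449, 902 and 2470 in WT and 470, 2291 and 3326 in KO. The differences of the other subunits were 0.36 for Mcm3, 0.61 for Mcm5, 0.07 for Mcm6 and -0.08 for Mcm2. Without KO replicate 3 that of Mcm7 was -0.10. Per kilobase of merged exon, the subunits had WT means from 319 ± 266 (Mcm5) to 540 ± 175 scaled reads (Mcm4; SD, n = 3), and neighbours in this order, Mcm5, Mcm2, Mcm3, Mcm6, Mcm7 and Mcm4, lay closer than their SDs.

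Origin licensing genes gave the lowest median difference of the 8 roles, 0.09, with 2 of 4 above 0. Cdc6, the ATPase that recruits the helicase, had 120, 110 and 374 scaled reads in WT and 106, 407 and 617 in KO, with a difference of 0.81 (SE 0.76). Its KO and WT values were alike in replicate 1 and lay 1.87 apart on the log2 scale in replicate 2. Orc6, a small origin recognition subunit, had 502, 672 and 880 in WT and 614, 1002 and 807 in KO, a difference of 0.25 (SE 0.30). Cdt1, the CDC6 partner in loading, and Orc1, the largest origin recognition subunit, had -0.07 (SE 0.75) and -0.15 (SE 0.78), with their highest library in WT replicate 3. Per kilobase, Orc1 (33.9 ± 26.9 in WT) and Cdc6 (38.5 ± 28.7) lay below Cdt1 (221 ± 153) and Orc6 (277 ± 76.7; SD, n = 3 each).

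Among the 5 genes that activate the helicase, Gins2, a GINS subunit, had 553, 989 and 1848 scaled reads in WT and 921, 1572 and 1812 in KO, a difference of 0.46 (SE 0.47). Mcm10, which helps to switch on the assembled helicase, had 187, 252 and 594 in WT and 123, 520 and 1079 in KO, a difference of 0.43 (SE 0.84) and of -0.26 without KO replicate 3. Gins2 was higher in KO in pairs 1 and 2 and Mcm10 in pairs 2 and 3. Cdc45 had 0.30, Gins1 0.13 and Gins3 -0.01. Gins3 had 209, 435 and 414 in WT and 205, 393 and 452 in KO, so its genotypes were nearly alike in every pair while both replicate 1 libraries were at about the same low level.

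All 5 genes of the sliding clamp, its loader and single-strand binding had a log2 difference above 0, with a median of 0.46. Rfc5, a clamp loader subunit, had 428, 301 and 454 scaled reads in WT and 442, 619 and 1081 in KO, a difference of 0.78 (SE 0.37) at an unadjusted p of 0.0729 and an adjusted p of 0.999 (limma). Its WT replicates stayed within a narrow range, unlike those of most members, and KO replicate 1 lay within that range. Rfc3, another loader subunit, had 349, 371 and 405 in WT and 309, 551 and 806 in KO, a difference of 0.46 (SE 0.37). Pcna, the clamp itself, had 1743, 2789 and 3841 in WT and 1992, 3292 and 5847 in KO, and per kilobase it was the highest member in both groups at 1163 ± 437 scaled reads for WT against 1546 ± 817 for KO (SD, n = 3). The differences of Pcna, Rfc4 and Rpa2, a subunit of the single-strand binding protein, were 0.35, 0.48 and 0.23. Pcna has 2 annotated pseudogenes and Tyms 1, so reads of these genes may have been divided.

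Polymerase, primase and Okazaki fragment genes had 6 of 6 differences above 0 (median 0.55), and all 6 were higher in KO in both pairs 2 and 3. Pold1, the catalytic subunit of the lagging-strand polymerase delta, had 339, 472 and 1027 scaled reads in WT and 452, 845 and 1479 in KO, a difference of 0.59 (SE 0.55). Lig1, the ligase that joins Okazaki fragments, had 523, 789 and 1352 in WT and 643, 1394 and 1800 in KO, a difference of 0.51 (SE 0.48). In both genes KO lay above WT within each of the 3 pairs while the groups overlapped. Pola1 and Prim1, of the polymerase alpha and primase complex that makes primers, had 0.52 and 0.66, Pole, of the leading-strand polymerase, had 0.61, and Fen1, the flap nuclease, had 0.23.

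The nucleotide supply genes held Rrm2, with a like difference between genotypes in each pair, and Dut, which had the lowest replicate-number share of the members. Rrm2, the regulatory subunit of ribonucleotide reductase, had 414, 931 and 2022 scaled reads in WT and 716, 1805 and 3893 in KO. KO exceeded WT by 0.79, 0.95 and 0.94 on the log2 scale in pairs 1, 2 and 3, and the groups overlapped, with WT replicate 3 above KO replicates 1 and 2. Its difference was 0.90 with an SE of 0.78, or of 0.17 with the replicate number as a block, where the adjusted p was 0.347 (limma), so it did not pass. Dut, the enzyme that removes dUTP before it enters DNA, had 989, 1128 and 772 in WT and 1539, 1231 and 1516 in KO. It was the only member of the 40 in which all KO libraries lay above all WT libraries, which held for 3.91% of all tested genes. The difference of Dut was 0.58 (SE 0.22), with an unadjusted p of 0.034 and an adjusted p of 0.999 in limma. In the two-sided exact permutation test its p was 0.1, the smallest value possible with 3 libraries against 3. Any gene whose groups do not overlap reaches that value, so the test adds nothing to the lack of overlap. For Rrm2 the p of the same permutation test was 0.5. Rrm1, Tyms and Tk1, the reductase large subunit, thymidylate synthase and thymidine kinase, had differences of 0.49, 0.54 and 0.50. Tk1 was lower in KO in pair 1 (-0.75) and higher in pairs 2 and 3 (1.15 and 1.10).

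Cyclin E and E2F genes, the regulators of the switch, had the highest median difference of the 8 roles (0.60, 5 of 5 measured above 0). E2f8, an atypical E2F that represses the targets of the activating ones, had 41.5, 74.7 and 267 scaled reads in WT and 62.0, 252 and 490 in KO, a difference of 1.05 (SE 0.95), the largest of the members. Its libraries lay 11.3-fold apart, and KO was above WT in all 3 pairs. Ccne2, a cyclin E, had 166, 150 and 327 in WT and 250, 396 and 286 in KO, a difference of 0.60 (SE 0.39). KO was higher in pairs 1 and 2 and lower in pair 3. Ccne1, the other cyclin E, had 0.56, E2f7, the second atypical E2F, 0.67 and E2f1, an activating E2F, 0.16 (SE 0.29). E2f1 had the narrowest range over libraries (1.97-fold) of the 40 members, with 1974, 1563 and 2534 in WT and 1767, 1989 and 3087 in KO.

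The 4 genes of replication-coupled chromatin had differences above 0. Hells, a chromatin remodeller of the SNF2 family needed for DNA methylation, had 366, 609 and 892 scaled reads in WT and 432, 1427 and 1409 in KO, a difference of 0.71 (SE 0.55). Chaf1a, the large subunit of the histone chaperone CAF-1, had 1000.1, 1637 and 3016 in WT and 1380, 2309 and 3681 in KO, a difference of 0.42 (SE 0.50). KO was above WT in each pair for both. Uhrf1, which brings maintenance methylation to newly copied DNA, had 0.44, and Chaf1b, a further CAF-1 subunit, 0.03, with -0.87 in pair 1.

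The sum of squares of each gene over the balanced 6 libraries was split into a part for the replicate number, a part for genotype and the rest. The replicate number has more levels than genotype, so its part is larger on average even where neither has an effect. For members the replicate number took a median of 81.9% and genotype 9.88%; for all tested genes these were 54.9% and 10.3%. The replicate share exceeded 60% in 36 of 40 members, and in 44.4% of all tested genes. It was highest for Gins3 (98.7%). The 4 others were Rfc3 (49.0%), Rfc5 (32.5%), Ccne2 (22.7%) and Dut (5.11%), and in Rfc5, Ccne2 and Dut genotype took more than the replicate number. In the model with both terms, 2 of 40 members, Rrm2 and Ccne1, passed an F test of the replicate number over all genes (limma adjusted p of 0.0453 and 0.0475), against 1.1% of all genes. At an unadjusted p under 0.05 there were 33 of 40 against 19.1%. This test was added after the values were seen. The same data led to the numbers being taken as pairs, so the test is only a description.

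**Figure D3:**
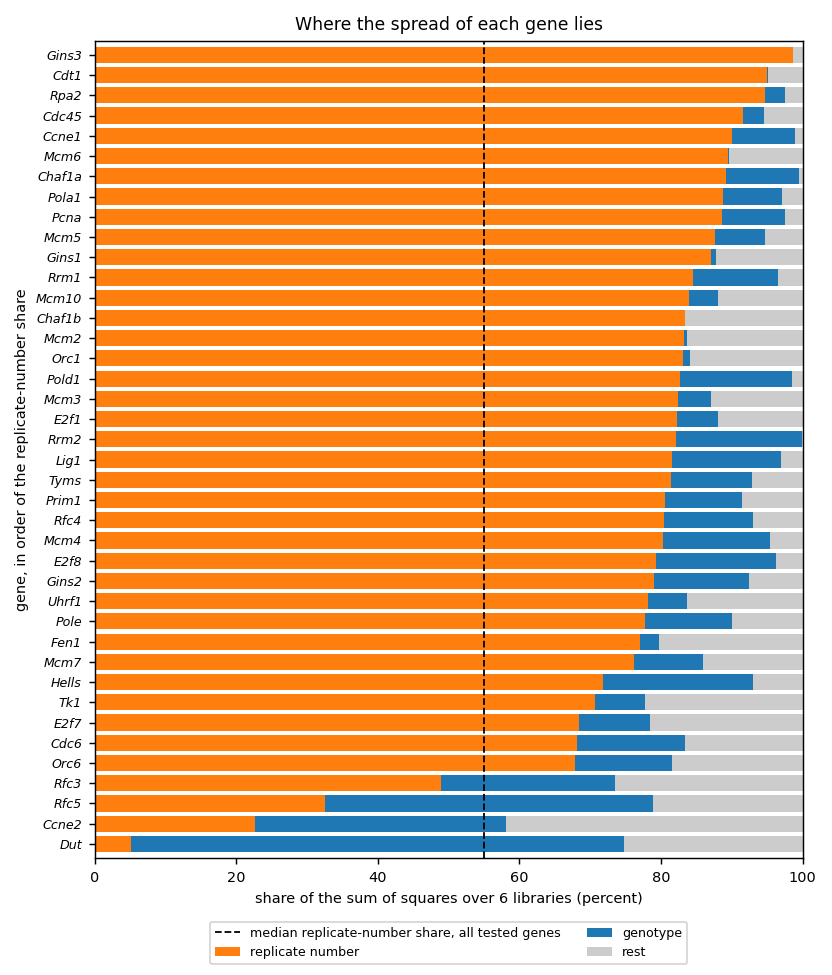
For each of 40 genes (y axis) the bar divides the sum of squares over the 6 libraries (x axis, percent) into replicate number, genotype and rest, and the dashed line marks the median replicate-number share of all tested genes, 54.9%. In 36 genes that share is above 60%, and in Dut it is 5.11%.

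Between genotypes, 36 of 40 members had a log2 difference above 0 (50.4% of all tested genes) and 4 below 0 (49.6%), with a median of 0.46 beside 0.00 for all tested genes and a range from -0.15 to 1.05. None passed an adjusted p of 0.05 in limma, where 0% of all genes did, and 1 member, Dut, had an unadjusted p under 0.05, on the higher side, where 1.46% of all genes did (2.15% on the lower side). By limma-voom 0 members passed and 1 had an unadjusted p under 0.05, a count given without the share of all genes and so not a result about the members. When the replicate number was added as a block, 0 passed by limma (0% of all genes), and for 10 the unadjusted p was under 0.05, all of them higher in KO; of all genes 3.17% did on the higher and 4.25% on the lower side. The authors' deposited table has none of the 40 past a false discovery rate of 0.05 (0.113% of all genes were higher and 0.412% lower). In it 1 of the 40 had a p under 0.05, beside 5.3% of all genes, and the members' median log2 ratio was 0.57.

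The difference did not stand in all pairs. In pair 1 the median difference was 0.01, with 20 of 40 members above 0; in pair 2 it was 0.71 with 38 of 40, and in pair 3 it was 0.63 with 33 of 40. Of the members 31 were higher in KO in both pairs 2 and 3, against 27.6% of all genes, 16 were higher in all 3 pairs, against 15.7%, and 0 were lower in all 3, against 15.0% of all genes. The median also turned on single libraries. It was -0.0037 without KO replicate 3, with 20 of 40 above 0, and to 0.14 without WT replicate 1, and it was 0.94 without KO replicate 1 and 0.86 without WT replicate 3. The median SE of a member was 0.58, against 0.29 for all genes, and 0.27 with the replicate block.

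**Figure D4:**
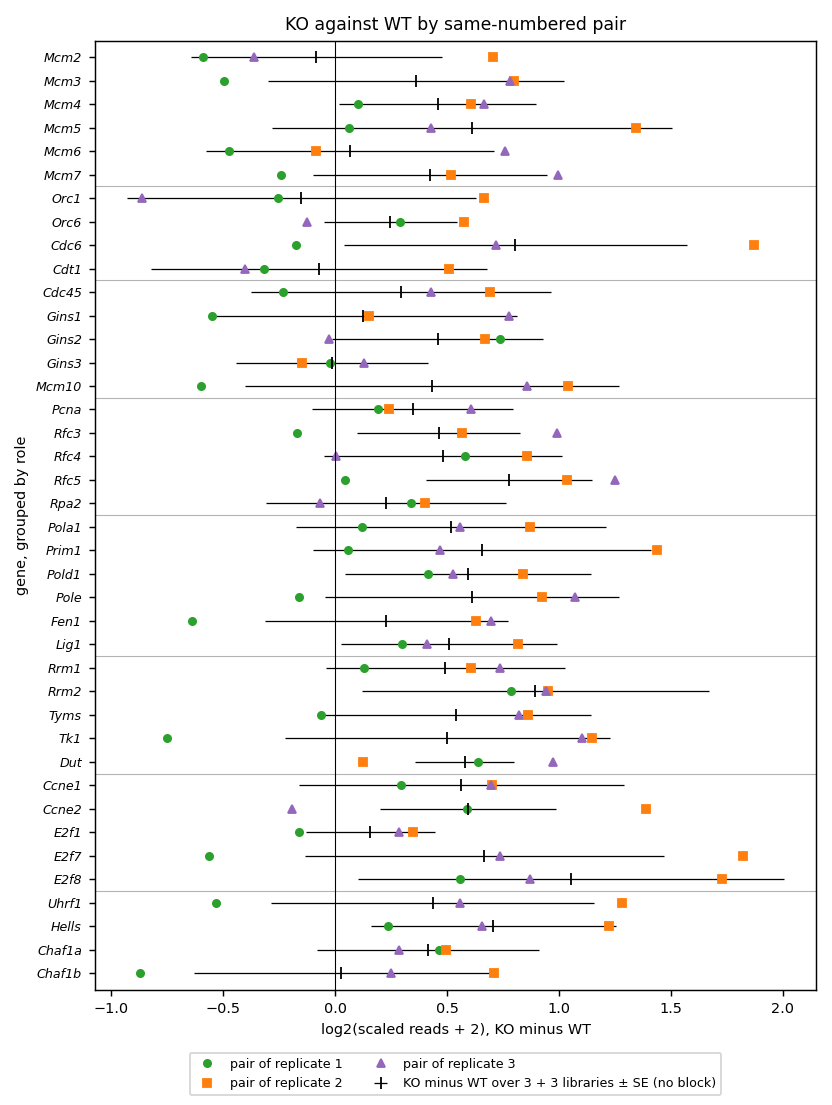
Log2(scaled reads + 2), KO minus WT (x axis), for 40 genes by role (y axis). Points give the pair of replicate 1, 2 or 3, and the black marks the difference over 3 KO and 3 WT libraries with its SE; pair 1 has 20 of 40 points above 0, pair 2 has 38 and pair 3 has 33.

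Among 41 other replication factors tested, the replicate 1 library was the lowest of both genotypes in 24 (58.5%) and the replicate 3 library the highest of both in 27 (65.9%). The origin recognition genes Orc3, Orc4 and Orc5 were among the others, with replicate-number shares of 8.57%, 2.98% and 2.51%. Of the 41, 35 had a difference above 0, with a median of 0.29. By limma none passed and the unadjusted p was under 0.05 for 0. With the replicate block it was for 5, all higher in KO, where 3.17% of all genes were (4.25% on the lower side). Orc3, an origin recognition subunit, and Rpa3, of the single-strand binding protein, had the smallest p in the list at -0.31 (SE 0.21) and 0.47 (SE 0.30), and in both the KO and WT libraries did not overlap, which held for 4.51% of all genes as lower and 3.91% as higher in KO. Other nucleotide supply genes had a median of 0.08 over 10 tested, with 6 above 0. Samhd1, which degrades deoxynucleotides, had 4435, 3693 and 4055 scaled reads in WT and 5337, 5518 and 5645 in KO, a difference of 0.44 (SE 0.18, unadjusted p 0.0397, adjusted p 0.999 in limma). Its KO and WT libraries did not overlap, and the replicate number took 3.90% of its sum of squares. Tk2, the mitochondrial thymidine kinase, did not overlap in the other direction, with 1406, 924.4 and 997 in WT and 924.2, 903 and 739 in KO, a difference of -0.36 (SE 0.24). Other chromatin genes had 7 of 8 above 0 with a median of 0.34. By limma none of them passed and the unadjusted p was under 0.05 for 0. With the replicate block it was for 0 of them, and for 2 of the 10 other nucleotide supply genes, higher in KO.

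G1 cyclins, their kinases, retinoblastoma family genes and other E2F factors had a median of 0.09, with 13 of 19 above 0; by limma none passed and the unadjusted p was under 0.05 for 0. The kinase genes Cdk4 and Cdk2 had the smallest p in this list at 0.48 (SE 0.25) and 0.45 (SE 0.25). The replicate number took a median 59.5% of the sum of squares in this list, and the median fold between highest and lowest library was 1.97, beside 4.42 for the members. CDK inhibitors, which restrain the kinases of G1, differed among themselves by library. Replicate 3 was the highest of both genotypes in 2 of 6, Cdkn2c and Cdkn2d, and replicate 1 the lowest of both in Cdkn2c alone; the replicate number took 90.3% of the sum of squares of Cdkn2d and 18.4% of that of Cdkn2a. The list's median lay at -0.61 in WT replicate 1 and between 0.03 and 0.25 in the other 5 libraries. Cdkn2a, which encodes p16 and ARF, had 2805, 3552 and 1835 in WT and 5406, 5032 and 4583 in KO, a difference of 0.92 (SE 0.27). KO and WT did not overlap for Cdkn2a, which held for 3.91% of all genes as higher in KO. Cdkn2a had the smallest p of its list, unadjusted 0.0106 and adjusted 0.999 in limma. Of all genes 1.46% had an unadjusted p under 0.05 on the higher side. Cdkn2c, another inhibitor of the cyclin D kinases, had 0.77 (SE 0.36), Cdkn1b 0.33, Cdkn2d 0.17, Cdkn2b -0.04 and Cdkn1a, the p21 gene, -0.06. The list had a median of 0.25 over 6 tested, which was 0.0098 without WT replicate 1 and 0.48 without WT replicate 3, and Cdkn1c was not analysed here. With the replicate block, 2 of these 6 and 1 of the 19 genes of the list before had an unadjusted p under 0.05 in limma. All were higher in KO, where 3.17% of all genes were (4.25% on the lower side).

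Mitosis genes, expressed later in the cycle, had the same order of libraries with a wider range. All 24 had their lowest value of each genotype in replicate 1 and their highest in replicate 3. The median fold between the highest and lowest library was 9.43, beside 4.42 for the members, and the median difference was 0.52 with 24 of 24 above 0. By limma none passed for genotype and the unadjusted p was under 0.05 for 0. With the replicate block it was for 6, all higher in KO, where 3.17% of all genes were (4.25% on the lower side). The F test of the replicate number was passed by 14, against 1.1% of all genes. Mki67, the Ki-67 proliferation antigen, had 736, 1887 and 5332 scaled reads in WT and 707, 4423 and 9529 in KO. The median differences by pair were -0.10, 0.96 and 0.82, and without KO replicate 3 the median was -0.20. The correlation of members with Mki67 over the 6 libraries had a median of 0.95, given as a description.

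**Figure D5:**
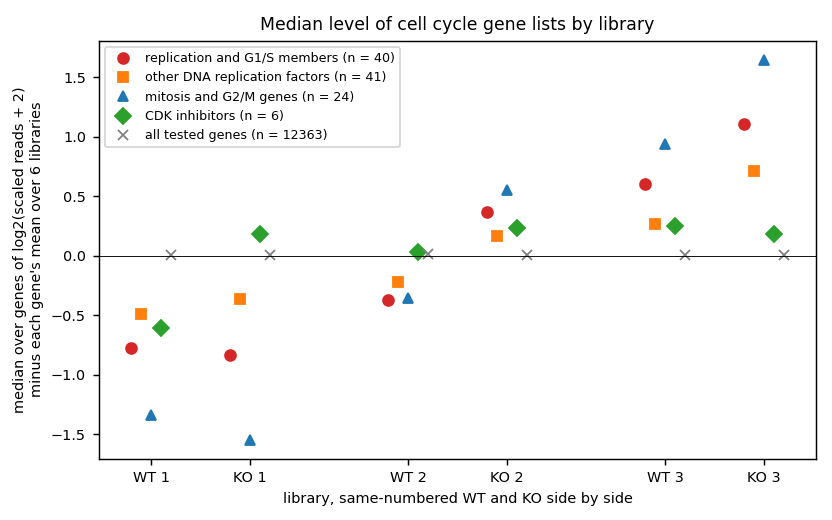
For each library (x axis, same-numbered WT and KO side by side) the points give the median over a list's genes of log2(scaled reads + 2) minus each gene's mean over the 6 libraries (y axis). Members run from -0.84 in KO replicate 1 to 1.11 in KO replicate 3, mitosis genes from -1.55 to 1.65, and all tested genes stay near 0.

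Markers of cell types also differed between the libraries. Of 8 smooth muscle markers 6 were measured, and their summed scaled reads ran from 16520 to 205102 in WT and from 31498 to 106017 in KO, with the highest library of each genotype in replicate 3, as for most members. Acta2 and Tagln made up most of these sums, and 5 of the 6 markers, all but Smtn, were highest in replicate 3 of both genotypes. Between genotypes the median log2 difference of the 6 was -0.81, with 2 above 0 and 3 lower in KO in all 3 pairs. Myh11, smooth muscle myosin heavy chain, had 90.1, 152 and 1656 in WT and 41.7, 20.8 and 96.8 in KO, a difference of -2.63 (SE 1.16, unadjusted p 0.0565 and adjusted p 0.999 in limma). The differences of Lmod1, Cnn1 and Smtn were -2.46, -1.36 and -0.26, and those of Acta2 and Tagln 0.14 and 0.56. Fibroblast markers (5 of 5 measured) summed to between 18011 and 31215 in WT and between 16870 and 40166 in KO, with the lowest sum of each genotype in replicate 3. Single fibroblast markers did not share this: Pi16 and Dpt were lowest in replicate 3 of both genotypes, while Dcn and Lum were highest of WT in replicate 3 and Pdgfra highest of KO there. Leukocyte markers (3 of 6) ran from 1233 to 1594 in WT and from 392 to 1197 in KO, and epithelial and mesothelial markers (4 of 7) from 5350 to 9801 and from 1098 to 5766, with Krt18 at 0 in KO replicate 3. The 1 endothelial marker measured of 5, Kdr, ran from 42.7 to 433 in WT and from 21.3 to 423 in KO. Myocd, Des, Pecam1, Cdh5, Tek, Vwf, Ptprc, Adgre1, Cd3e, Krt8, Wt1 and Epcam were not analysed here. Since every gene of the per-library table had at least 200.5 estimated reads in its highest library, weaker markers may be absent from these sums. Sequencing depth and the smooth muscle sum were highest in replicate 3 of each genotype, and their part in the members' levels was not tested. In bulk RNA a larger share of cells in S phase and more RNA per such cell cannot be told apart. Of the members, 11 are overlapped by a measured gene on the other strand, among them Mcm7, Lig1, Rfc5 and Ccne2, and Cdt1 by the predicted gene Gm20388 on the same strand. No source used here states whether strand was used in counting, so reads in those overlaps cannot be told apart.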

How the data were processed

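RNA of 6 cultures (3 WT, 3 KO) was sequenced as stranded poly(A) libraries with paired ends, per the labels' protocols. The submitters' processing notes list mm39 and GRCm39 as builds and DESeq2, Partek and STAR as tools, with no roles; of 12385 genes in the GENCODE M21 (GRCm38) annotation, however, 12341 have the same start. Both deposited per-library tables give a scaled signal (estimated reads over a library factor), not raw counts. The table used gives 34.1 to 39.2 M scaled reads per library, and 1 read was worth between 0.71 and 1.19, found from low values, of which 82.5% to 92.4% lay within 0.05 of a whole read. The authors' deposited table holds p-values with a step-up false discovery rate, log2 ratios of KO over WT and mean signal per group, per the file headers.

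limma 3.58.1 (R 4.3.3, statmod 1.5.0) was fitted on log2(value + 2) for the 12363 genes with at least 10 in at least 3 libraries, with genotype alone, a mean trend and robust priors; two-sided p-values were adjusted over all genes (Benjamini-Hochberg), with 0.05 as threshold. The F test of the replicate number was added after values were seen. The fit was tested on simulated independent genes with 1 fixed spread, no replicate effect and changes larger than those of the members. That test therefore does not bear on changes of the members' size or on their shared pattern. Deviations from the group means correlated between libraries of 1 number (0.43, 0.15 and 0.39, all above 0.1), so the numbers were taken as pairs; this comes from the data, not from a label. Per-kilobase levels use merged GENCODE M21 exons. Values in every library are given for the 2 members of each role with the smallest p, and for further members that were chosen after their values were seen. Members and lists were chosen with earlier results of these data known. Alternatives were other scalings, filters, pseudocounts, the other table, voom, other priors, the replicate block, quality weights and omitting libraries.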

Additional observations from a re-analysis of the deposited data

How the results depend on the processing

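No member passed for genotype under any alternative run, and the count of members higher in KO in all 3 pairs ran from 15 to 18. The count of genes called over the whole table, 0, became 30 with library quality weights (a fit that stopped before full convergence), 5 with these weights and the replicate block, 15 and 11 with the replicate block without replicate 2 and without replicate 3, and between 0 and 1 when 1 library was left out. With the replicate block on all libraries the count stayed at 0, and the block changed no call of a member. Other scalings, filters, pseudocounts, tables, priors, weights and blocked fits on all 6 libraries kept the members' median difference between 0.45 and 0.55, with 36 to 38 of 40 above 0. With the block and without replicate 1, 2 or 3 the median was 0.67, 0.27 and 0.38. The median of the G1 cyclin, kinase and E2F list, 0.09, was 0.20 with quality weights, 0.27 with these and the block, and 0.27 with the block without replicate 3.

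Leaving out 1 library moved the medians furthest, from -0.0037 to 0.94 for members, from -0.032 to 0.58 for other replication factors, from -0.14 to 0.24 for other nucleotide supply genes, from 0.10 to 0.72 for other chromatin genes, from 0.0098 to 0.48 for CDK inhibitors and from -0.20 to 1.43 for mitosis genes. Without KO replicate 3 the differences of Mcm7 and Mcm10 turned to -0.10 and -0.26; over all single omissions Mcm10 ran from -0.26 to 1.295. Members at an unadjusted p under 0.05 numbered 8 without KO replicate 1, 0 without WT replicate 1 or KO replicate 3, and 18, 19 and 22 in the replicate block with limma-voom, with quality weights and without replicate 1. The share of all tested genes under each setting is not given here, so these counts are not a result about the members. The cause of these shifts was not tested. The lowest members were E2f8, with 41.5 scaled reads in its lowest library, and Orc1, with 43.9. The part of depth in their values was not tested.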
